A study of Mus musculus with 18 samples.

Results

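Germline genes of a class known for silencing by promoter DNA methylation were examined for H3K9me3, the trimethylation of lysine 9 on histone H3. The set holds 10 genes, Dazl, Ddx4, Mael, Asz1, Sycp1, Sycp3, Hormad1, Brdt, Stk31 and Slc25a31, of 35856 genes placed on the main chromosomes by the annotation deposited with the series, and all 10 were found there by name. The rule takes them by name and uses no measured value, but the list was drawn up with earlier results of these data known. The series profiled H3K9me3 by ChIP-seq in mouse embryonic stem cells (mESCs) of the E14TG2a line. Of its 18 samples, 6 have a list of peaks and were used: 2 libraries each of wild-type (WT) cells, of cells labelled UHRF1KO and of cells labelled DHX9KO, called Uhrf1 KO and Dhx9 KO here. The methods describe Uhrf1 KO lines as clones made with CRISPR-Cas9 in mESCs that carry an inducible heterochromatin reporter. In a figure legend for H3K9me3 ChIP-seq, the paper names the wild-type cells beside them by the same reporter. The methods call the 2 libraries of a sample biological replicates, without saying whether these were separate cultures or clones, so any p-value measures only the spread between these libraries. How the Dhx9 KO cells were made is not given in the sources used here.

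In mammals, a class of germ-cell genes has CpG-rich promoters that become methylated in the early embryo, and this methylation keeps the genes off in somatic cells. UHRF1 binds newly replicated DNA that is methylated on one strand and brings in the maintenance methyltransferase DNMT1, so that methylation is copied at each division. DHX9 is a helicase that unwinds RNA and DNA. H3K9me3 is a mark of silent chromatin which many methylated promoters also carry, and germline promoters of this class are known targets of the repressors E2F6 and MGA-MAX, which read an E2F site and an E-box. No RNA and no DNA methylation values were analysed here, so what follows is about the histone mark alone.

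The promoter sequences show what the genes have in common. RefSeq holds a promoter for each of the 10 genes (GRCm38.p6, which is mm10), taken as 250 bases before to 50 bases after the start. In this window of 300 bases the 10 promoters had a median of 23.5 CpG sites, from 15 in Sycp3 to 38 in Ddx4, beside a median of 7 over 32851 promoters of the same length and of 13 over 61 promoters of other germline genes. The E-box CACGTG, which reads the same on both strands, was found in 8 of the 10 promoters and in 7.15% of all promoters and 13.1% of the other germline promoters. The E2F-type site TTCCCGC, searched on both strands as TTCCCGC and GCGGGAA, was found in Ddx4, Sycp3, Hormad1 and Slc25a31, and in 4.6% of all promoters and 16.4% of the other germline promoters. These 4 promoters also held the E-box, a combination found in 0.457% of all promoters and 3.28% of the other germline promoters, and no match of one motif overlapped a match of the other. Sycp3 and Hormad1 held 2 E-boxes each. Dazl and Asz1 held neither motif within this window. Both motifs contain a CpG, and the shares were not matched for CpG content. A match is only a run of letters and not a measured binding site.

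The 250 bases before the start, 5′ to 3′ on the strand of the gene, are shown for the 6 genes whose RefSeq start is the outermost start of the deposited annotation, with matches of either motif in capitals (the E2F-type match of Slc25a31 lies 20 bp after the start and is not shown). They lie at chr17:50293621-50293870 for Dazl (minus strand), chr1:166238745-166238994 for Mael (minus strand), chr6:18109062-18109311 for Asz1 (minus strand), chr3:102936101-102936350 for Sycp1 (minus strand), chr10:88459337-88459586 for Sycp3 (plus strand) and chr3:40708621-40708870 for Slc25a31 (plus strand). Dazl is shown for the highest log2 fold over background in WT cells, Slc25a31 and Sycp1 for the higher level in Uhrf1 KO cells, Mael as a gene with an E-box far from the start, and Sycp3 and Asz1 as the promoters with a peak only in knockout cells.
Dazl: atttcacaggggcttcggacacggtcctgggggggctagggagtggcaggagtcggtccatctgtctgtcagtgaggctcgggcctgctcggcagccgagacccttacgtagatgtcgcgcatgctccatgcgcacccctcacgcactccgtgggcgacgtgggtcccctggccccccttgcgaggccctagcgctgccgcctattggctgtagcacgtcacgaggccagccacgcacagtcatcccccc
Mael: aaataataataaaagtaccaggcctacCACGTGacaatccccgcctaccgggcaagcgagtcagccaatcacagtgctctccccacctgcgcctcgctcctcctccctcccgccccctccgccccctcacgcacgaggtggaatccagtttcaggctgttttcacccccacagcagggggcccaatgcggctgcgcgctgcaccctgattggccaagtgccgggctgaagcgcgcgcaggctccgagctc
Asz1: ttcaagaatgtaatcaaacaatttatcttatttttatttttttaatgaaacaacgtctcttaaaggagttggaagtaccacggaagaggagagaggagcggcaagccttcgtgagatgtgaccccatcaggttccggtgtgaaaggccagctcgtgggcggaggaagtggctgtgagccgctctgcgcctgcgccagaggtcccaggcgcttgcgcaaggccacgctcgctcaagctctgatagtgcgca
Sycp1: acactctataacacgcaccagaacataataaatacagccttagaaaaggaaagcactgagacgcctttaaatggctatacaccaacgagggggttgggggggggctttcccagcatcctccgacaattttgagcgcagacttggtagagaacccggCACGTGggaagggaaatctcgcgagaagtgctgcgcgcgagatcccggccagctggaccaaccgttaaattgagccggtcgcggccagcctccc
Sycp3: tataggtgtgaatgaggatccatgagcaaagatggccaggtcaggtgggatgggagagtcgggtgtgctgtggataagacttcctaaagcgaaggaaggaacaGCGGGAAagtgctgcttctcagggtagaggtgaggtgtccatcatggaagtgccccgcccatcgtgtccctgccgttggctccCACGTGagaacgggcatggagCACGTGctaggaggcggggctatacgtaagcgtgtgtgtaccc
Slc25a31: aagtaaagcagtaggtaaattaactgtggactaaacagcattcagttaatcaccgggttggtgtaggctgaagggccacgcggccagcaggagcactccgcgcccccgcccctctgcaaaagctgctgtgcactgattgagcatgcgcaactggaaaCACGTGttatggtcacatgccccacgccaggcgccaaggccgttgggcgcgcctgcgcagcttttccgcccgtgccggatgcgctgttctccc

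Every position below is in mm10. The authors called the peaks in each library separately, in bins of 200 bp, with the reads of a background library beside those of the ChIP. A promoter was counted as marked when a peak touched the 1 kb on each side of a transcript start. To compare libraries, the background reads in a peak were scaled to the ChIP library and subtracted, and these excess reads were divided by the library's median over the 2291 promoters marked in all 6 libraries, counting promoters under the same peaks once. This ratio is called the level, so that a level of 1 is that of the median marked promoter. It sets the median of these promoters to the same value in every library. The library sizes behind the lists were estimated from their read counts and log2 folds, relative to WT replicate 1. They were 0.960 for WT replicate 2, 0.454 and 0.839 for Uhrf1 KO and 1.12 and 1.11 for Dhx9 KO. Uhrf1 KO replicate 1 is thus the shallowest library, with 70195 peaks where the other lists hold 93916 to 125453. The Uhrf1 KO lists were also called on other background reads than the WT and Dhx9 KO lists: of peaks with the same limits as in WT replicate 1, 100% in WT replicate 2 and in both Dhx9 KO lists had the same background count, but 4.29% and 2.27% in the Uhrf1 KO lists. The methods state that libraries were subsampled to a like number of reads before peak calling and that wild-type input was the background, so the sizes and background counts found in the lists differ from that description. For Uhrf1 KO, genotype, depth and background cannot be told apart in the calls. The estimated Uhrf1 KO sizes also hold a factor of 0.592 for the other background. It is the median ratio of background counts at peaks with the same limits in a WT and a Uhrf1 KO list. An error in this factor, which was not tested, would shift every Uhrf1 KO value scaled by library size.

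In WT cells, 7 of the 10 promoters carried an H3K9me3 peak in both libraries, namely Dazl, Ddx4, Mael, Sycp1, Hormad1, Brdt and Slc25a31, where 23.7% of all genes did. Sycp3, Asz1 and Stk31 had no promoter peak in either WT library. None of the 7 marked promoters lost its peak in either knockout. Of all 8497 genes marked in both WT libraries, 33.7% had no promoter peak in either Uhrf1 KO library and 8.97% in neither Dhx9 KO library. All 7 kept the peak in both Dhx9 KO libraries, against 67.3% of those genes, and 6 kept it in both Uhrf1 KO libraries, against 31.3%. Among the 2895 genes whose peak reached a log2 fold of 1 in each WT library, which take in every marked gene of the set but Hormad1, 15.3% lost the peak in Uhrf1 KO cells and 55.0% kept it in both libraries. The shares in Dhx9 KO cells were 4.15% lost and 84.5% kept. On this footing the 6 of 6 kept in Uhrf1 KO cells stand beside 55.0%, and the 6 of 6 kept in Dhx9 KO cells beside 84.5%. Of the other germline genes with WT peaks this strong, 18 of 22 (81.8%) kept the peak in Uhrf1 KO cells and 18 of 22 in Dhx9 KO cells.

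**Figure D1:**
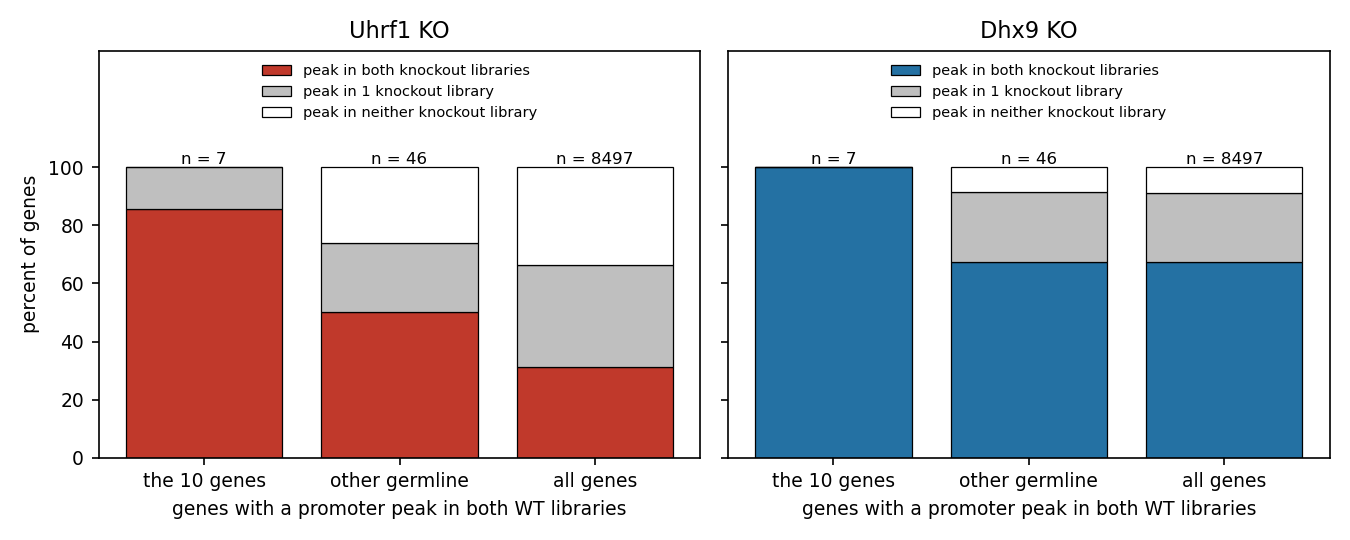
Percent of genes with a promoter peak in both WT libraries (y axis) that have a peak in both, in 1 or in neither library of Uhrf1 KO cells (left) and Dhx9 KO cells (right), for the 10 genes, the other germline genes and all genes, with the number of genes above each bar. No gene of the set falls in the white part, where 33.7% and 8.97% of all genes lie.

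Of the 3 promoters unmarked in WT cells, Sycp3 had a peak in all 4 knockout libraries and Asz1 in both Uhrf1 KO libraries only, while Stk31 had none in any library. Among the 23733 genes unmarked in both WT libraries, 1.03% gained a peak in both Uhrf1 KO libraries, 2.02% in both Dhx9 KO libraries and 0.358% in all 4. The whole pattern of Sycp3 over the 6 libraries was shared by 85 genes, that of Asz1 by 62 genes and that of Stk31 by 20901 genes. The pattern of the 6 genes marked in every library was shared by 2357 genes and that of Hormad1, missing in Uhrf1 KO replicate 1 alone, by 2154 genes. Under a false discovery rate of at most 1e-10 in both libraries of a knockout, neither gain was left, and with a log2 fold of at least 1 required, only the gain of Sycp3 in Uhrf1 KO cells was left. No other gene started within any promoter peak of the set.

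Dazl and Ddx4 encode RNA-binding proteins that mark germ cells, DAZL a regulator of translation and DDX4 the germ-cell helicase known as VASA or MVH. Dazl lies on the minus strand of chromosome 17 from 50279393 to 50293620, and its peak held 200 and 202 ChIP reads in WT, 51 and 223 in Uhrf1 KO and 174 and 167 in Dhx9 KO cells. The levels were 0.972 and 1.16 in WT, 0.853 and 1.03 in Uhrf1 KO and 1.02 and 0.788 in Dhx9 KO cells. Dazl was thus close to the median marked promoter in all genotypes, and the groups overlapped. By log2 fold over background, 2.31 and 2.63 in WT cells, it stood above 98.2% and 99.2% of the promoter peaks of the WT lists, the highest rank of the set in each. The part shared by its 6 peaks reached from 1380 bp upstream to 419 bp downstream of the start.

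Ddx4 lies on the minus strand of chromosome 13 from 112598333 to 112652633. Its levels were 0.517 and 0.564 in WT, 0.584 and 0.506 in Uhrf1 KO and 0.677 and 0.587 in Dhx9 KO cells. These 6 values span less than those of any other gene of the set that was marked in every library. The limma estimate of the change in Uhrf1 KO cells was 0.00 on the log2 scale (SE 0.36).

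Mael and Asz1 act in the piRNA pathway, which silences transposons in the germ line, and both proteins sit in the nuage, the granule where piRNAs are made. Mael lies on the minus strand of chromosome 1 from 166201385 to 166238744. Its levels were 0.563 and 0.493 in WT, 0.777 and 0.971 in Uhrf1 KO and 0.732 and 0.606 in Dhx9 KO cells, so that on this scale both knockouts lay above both WT libraries. Per called kb and library size the Dhx9 KO values, 38.4 and 38.6, lay below the WT values, 41.1 and 79.9, so the direction in Dhx9 KO cells turned with the scale. Scaled by library size in place of the median promoter, the excess reads in Uhrf1 KO cells, 74.7 and 197, no longer cleared those in WT cells, 92.5 and 75.2.

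Asz1 lies on the minus strand of chromosome 6 from 18050964 to 18109061. Its promoter peak held 34 ChIP and 26 background reads in Uhrf1 KO replicate 1 and 51 and 11 in replicate 2, with log2 folds of 0.93 and 1.87 and false discovery rates of 0.000262 and 1.01e-14. The levels were 0.369 and 0.218. In the WT and Dhx9 KO lists the nearest peak began 11.3 to 11.5 kb upstream of the start. Asz1 was however marked elsewhere in every library: a site in its introns at 18062801 to 18066200, made up to 93.1% of repeat-masked sequence, held 57 and 99 reads in WT, 34 and 106 in Uhrf1 KO and 67 and 129 in Dhx9 KO cells.

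**Figure D2:**
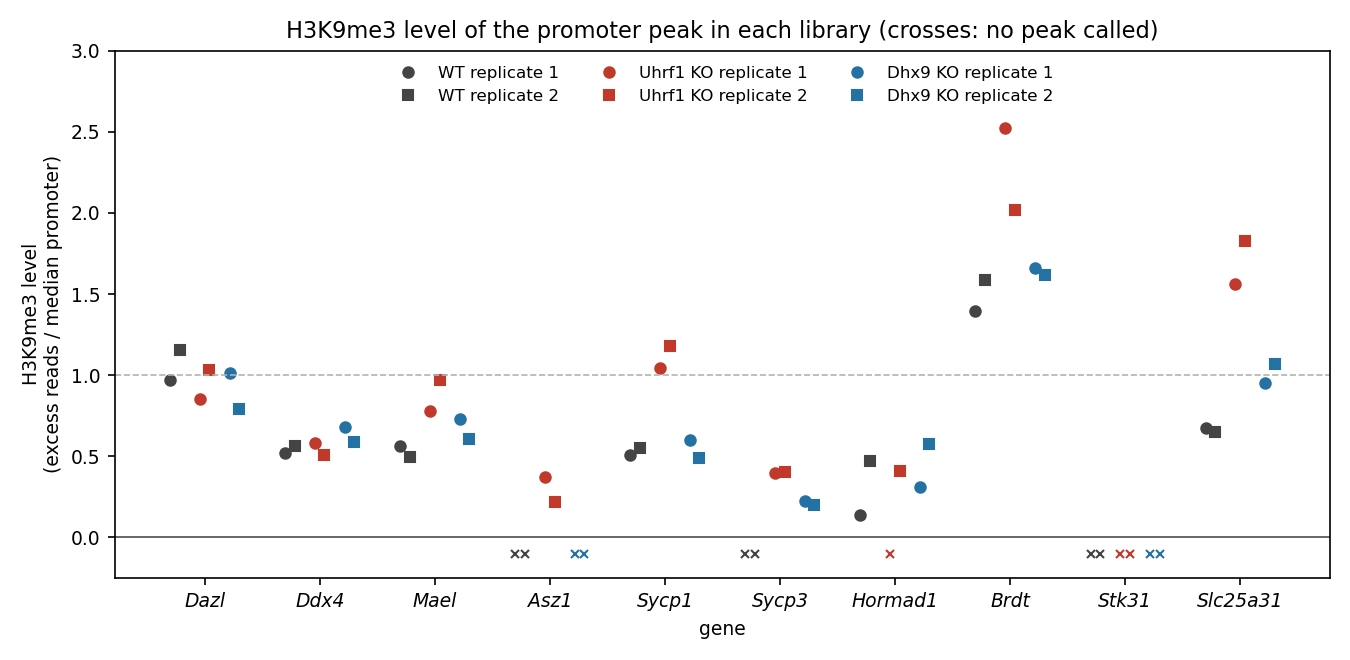
H3K9me3 level of the promoter peak, as excess reads over the library's median marked promoter (y axis), for each gene (x axis) in each of the 6 libraries, with circles for replicate 1, squares for replicate 2 and crosses under the zero line where no peak was called. Slc25a31, Sycp1, Mael and Brdt have both Uhrf1 KO values above both WT values, and Sycp3 and Asz1 have values in knockout cells only.

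Sycp1, Sycp3 and Hormad1 encode proteins of meiotic chromosomes. SYCP1 forms the transverse filaments of the synaptonemal complex, SYCP3 its lateral elements, and HORMAD1 marks axes that are not yet paired. Sycp1 lies on the minus strand of chromosome 3 from 102818499 to 102936100, and its promoter peak held 132 and 131 ChIP reads in WT, 69 and 256 in Uhrf1 KO and 135 and 129 in Dhx9 KO cells. The levels were 0.509 and 0.548 in WT, 1.04 and 1.18 in Uhrf1 KO and 0.599 and 0.490 in Dhx9 KO cells. The Uhrf1 KO mean was 2.10 times the WT mean, with no overlap, whereas the Dhx9 KO values lay on both sides of the WT values.

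Sycp3 lies on the plus strand of chromosome 10 from 88459587 to 88473236 and had no peak over its transcript and 5 kb on each side in either WT library, where the nearest peaks were 104 and 64.8 kb away from the start. In Uhrf1 KO cells its promoter peak held 33 ChIP and 23 background reads in replicate 1 and 117 and 38 in replicate 2, with log2 folds of 1.06 and 1.28. In Dhx9 KO cells it held 78 and 50 reads in replicate 1 and 91 and 59 in replicate 2, with log2 folds of 0.64 and 0.63. The 4 peaks began at the same bin, 386 bp upstream of the start. Their false discovery rates were 6.06e-05 and 3.94e-17 in Uhrf1 KO and 0.000114 and 4.33e-05 in Dhx9 KO cells, and their levels 0.393, 0.405, 0.221 and 0.197. The lists give no reads outside peaks, so the WT level at Sycp3 cannot be given. Between the knockouts, the limma estimate was 0.92 (SE 0.45) higher on the log2 scale in Uhrf1 KO cells, with an adjusted p of 0.388.

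Hormad1 lies on the plus strand of chromosome 3 from 95559640 to 95587861 and had the weakest peaks of the 7 promoters marked in WT cells. Its levels were 0.139 and 0.468 in WT and 0.307 and 0.572 in Dhx9 KO cells, and 0.408 in Uhrf1 KO replicate 2. In Uhrf1 KO replicate 1 the nearest peak, with 36 ChIP reads, ended 1.84 kb upstream of the start and therefore outside the promoter. Without Uhrf1 KO replicate 2, Hormad1 would count as lost.

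Brdt, Slc25a31 and Stk31 act in male germ cells. BRDT is the bromodomain protein of the testis, Slc25a31 encodes the ADP/ATP carrier of male germ cells, and STK31 is a Tudor-domain kinase. Brdt lies on the plus strand of chromosome 5 from 107331084 to 107387061 and had the widest promoter peaks of the set, 6000 to 8200 bp in the 6 libraries. It also had the highest levels in every library, at 1.39 and 1.59 in WT, 2.53 and 2.02 in Uhrf1 KO and 1.66 and 1.62 in Dhx9 KO cells. The level sums reads over the whole peak, so width enters it. Per called kb and library size, the reads at Brdt were 56.3 and 60.1 in WT and 57.1 and 68.2 in Uhrf1 KO cells, which overlap.

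Slc25a31 lies on the plus strand of chromosome 3 from 40708871 to 40726094, and its peak held 174 and 138 ChIP reads in WT, 95 and 380 in Uhrf1 KO and 185 and 227 in Dhx9 KO cells. The levels were 0.672 and 0.648 in WT, 1.56 and 1.83 in Uhrf1 KO and 0.953 and 1.07 in Dhx9 KO cells. The Uhrf1 KO mean was 2.56 times and the Dhx9 KO mean 1.53 times the WT mean. In order of level, Slc25a31 came after Brdt and Dazl in both WT libraries and after Brdt alone in both Uhrf1 KO libraries. Stk31, on the plus strand of chromosome 6 from 49395483 to 49469506, had its nearest peak 3.48 to 4.28 kb upstream of a start in the 6 libraries.

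**Figure D3:**
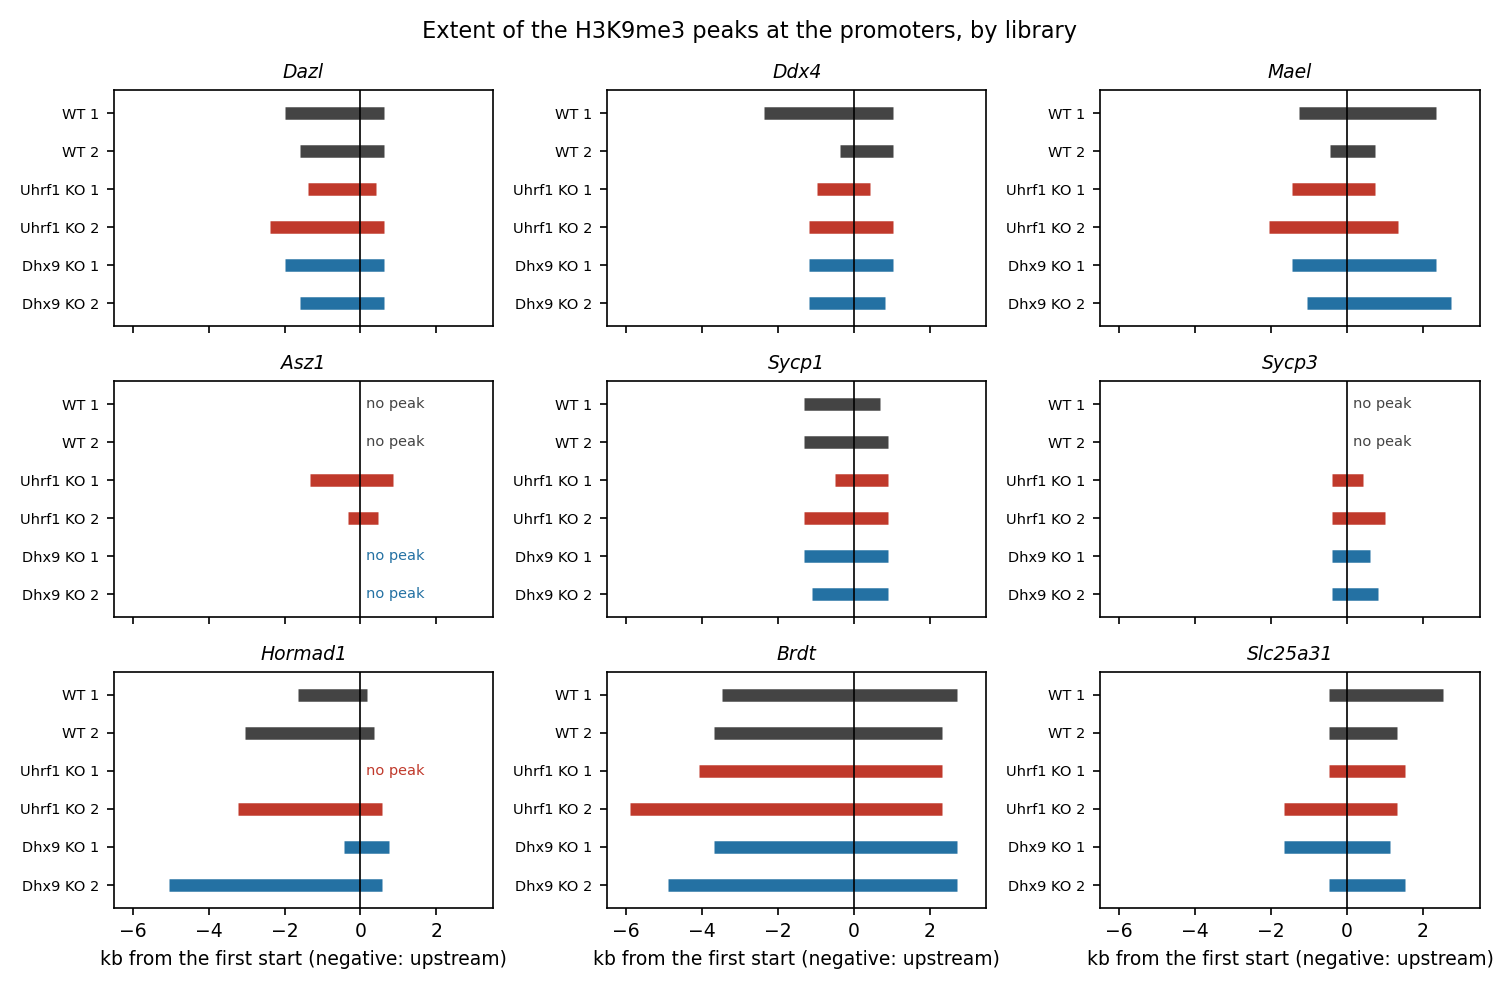
Extent of the promoter peak in each library (rows, with WT in grey, Uhrf1 KO in red and Dhx9 KO in blue) for the 9 genes with one, in kb from the outermost start (x axis, negative upstream). Brdt has the widest, and the peaks of Sycp3 share their upstream limit, 386 bp before the start.

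Both Uhrf1 KO levels lay above both WT levels at 4 of the 6 promoters that could be compared, Slc25a31, Sycp1, Mael and Brdt, and below at none. Of 2576 promoters, 38.1% lay above and 26.6% below in the same way, so that separation alone was common. The other scales gave fewer genes. With excess reads per library size, Slc25a31, Sycp1 and Brdt lay above, where 30.1% of promoters did. Brdt was a near tie there, with 242.7 and 409.1 in Uhrf1 KO against 229.0 and 242.2 in WT cells. With ChIP reads per called kb and library size, Slc25a31 and Sycp1 lay above, where 40.0% did. Slc25a31 and Sycp1 were above WT on all 3 scales, of which those by library size rest on the estimated sizes. In an exact two-sided permutation test, 2 libraries against 2 cannot give a p below 0.333, which both genes reached.

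Across all promoters marked in the 4 libraries, limma on log2 excess reads with Benjamini-Hochberg adjustment put Slc25a31 1.35 higher in Uhrf1 KO cells (SE 0.35, adjusted p = 0.120) and Sycp1 1.06 higher (SE 0.35, adjusted p = 0.149). Their unadjusted p-values were 0.0119 and 0.0299, and 27.8% of all promoters in this comparison had one under 0.05. Mael was 0.71 higher (SE 0.37) and Brdt 0.60 higher (SE 0.35), with adjusted p-values of 0.255 and 0.299, and the log2 change of Dazl was -0.19 (SE 0.36). No gene of the set passed the threshold of 0.05, which 0.505% of the promoters did. That share rests on 13 promoters, a number that became 696 without Uhrf1 KO replicate 2, 0 without Uhrf1 KO replicate 1, 4 without WT replicate 1 and 0 with the replicate number as a block, and no gene of the set was called in any of these. The median change of the 6 genes was 0.66, with 5 of 6 above 0, beside a median of 0.18 over all 2576 promoters, of which 55.9% were above 0. Against that median of 0.18, Ddx4 and Dazl lay below and the other 4 genes above the typical promoter.

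In Dhx9 KO cells, both levels lay above both WT levels at Ddx4, Mael, Slc25a31 and Brdt and below at none of the 7 promoters, where 16.6% of 5491 promoters lay above and 22.8% below. The direction depended on the scale. With excess reads per library size, none lay above (8.18% of promoters) and Dazl and Sycp1 lay below (38.7%), and with ChIP reads per called kb and library size none lay above (9.29%) and Dazl, Mael, Sycp1 and Brdt lay below (35.5%). In limma the largest estimates were 0.85 (SE 0.81) for Hormad1 and 0.74 (SE 0.48) for Slc25a31, with adjusted p-values of 0.799 and 0.726. No promoter passed the threshold (0.00%), while 229 lower and 197 higher promoters had an unadjusted p under 0.05, and edgeR called 2 promoters with the called length as an offset and 0 without it.

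**Figure D4:**
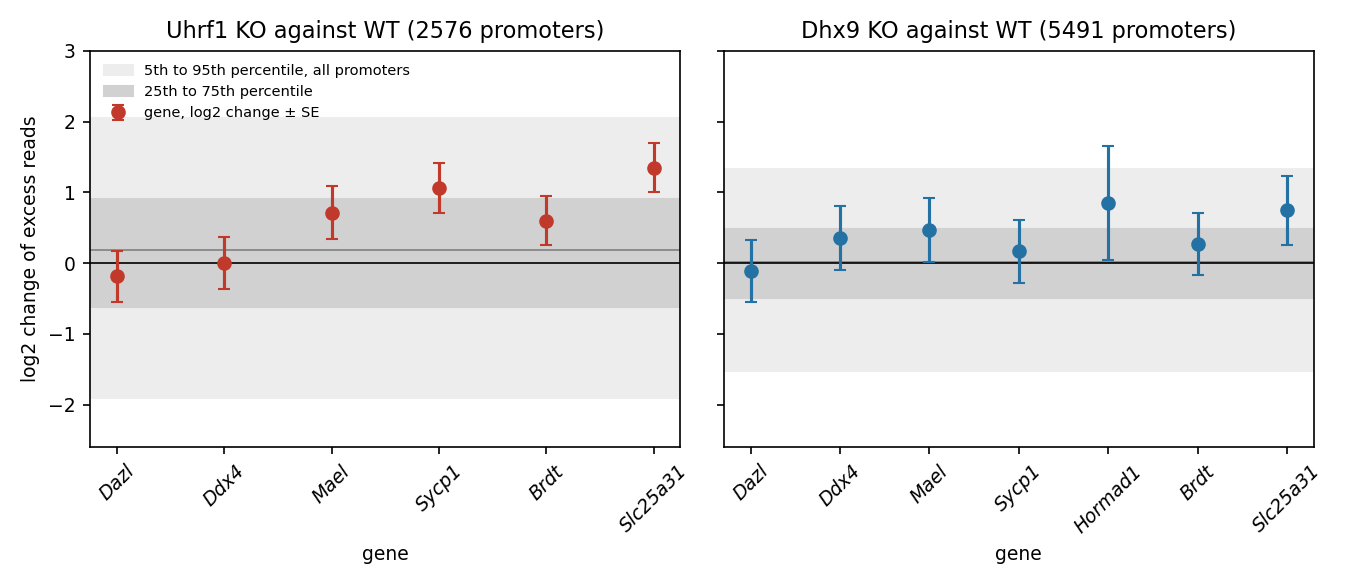
Log2 change of excess reads at the promoter (y axis) in Uhrf1 KO (left) and Dhx9 KO (right) against WT cells, with points and bars for the limma estimate and its standard error, and grey bands for the 5th to 95th and the 25th to 75th percentile of all 2576 and 5491 promoters. Slc25a31 at 1.35 and Sycp1 at 1.06 lie above the inner band on the left but within the outer one.

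The knockouts were also compared with each other at the 7 promoters marked in all 4 of their libraries. The estimate was 1.02 (SE 0.49) higher in Uhrf1 KO cells for Sycp1 and 0.72 (SE 0.47) higher for Slc25a31, with limma adjusted p-values of 0.385 and 0.457. No promoter of 2503 passed (0.00%), 128 lower and 180 higher promoters had an unadjusted p under 0.05, and edgeR called 3 with the called length as an offset and 0 without it. No difference between the knockouts was shown for any gene of the set, and standard errors of 0.45 to 0.50 on the log2 scale do not show that they are alike.

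The edgeR test of read counts was limited to regions with a peak in each of the 4 libraries that spans 80% or more of the region, which few promoters with shifting peak limits meet. No region of the set entered it for Uhrf1 KO against WT, where 8.27% of 2528 regions passed an adjusted p of 0.05, or for Uhrf1 KO against Dhx9 KO, where 1.69% did. The direction of these calls over all regions depends on the scaling: for Uhrf1 KO against WT, 161 were lower and 48 higher, but 32 lower and 365 higher with library sizes derived from the lists, and for Uhrf1 KO against Dhx9 KO 30 lower and 4 higher became 1 lower and 141 higher. For Dhx9 KO against WT, 4 regions entered and none passed, where 0.532% of 4701 regions did. The edgeR log2 change was -0.24 at the Dazl promoter (SE 0.18, Benjamini-Hochberg adjusted p = 0.671) and 0.01 at the Sycp1 promoter (SE 0.18, adjusted p = 0.986). With every region called in the 4 libraries admitted, the promoters of Slc25a31 and Sycp1 were 0.66 and 0.71 higher in Uhrf1 KO cells, with edgeR adjusted p-values of 0.462 and 0.449.

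The DNA under most promoter peaks of the set was rich in CpG. The part shared by the peaks of all 6 libraries had 4.19 to 7.08 CpG sites per 100 bp at Slc25a31, Dazl, Mael, Ddx4 and Sycp1. Over 2180 promoters with such a shared part the median was 1.26, and these 5 genes exceeded 97.1% to 99.3% of them. Brdt, whose shared part spans 5800 bp, had 1.43, above 60.1% of them. Repeat-masked sequence made up 8.58% to 21.1% of the shared part at the first 5 genes and 44.5% at Brdt, beside a median of 21.8%. The shared parts at Asz1, Sycp3 and Hormad1, over the libraries with a peak, had 4.38, 5.00 and 5.33 CpG sites per 100 bp. All 9 shared parts held the start, and 5.16% (Brdt) to 53.4% (Ddx4) of their bases were exonic. Over the 2180 promoters a shared part was not required to hold a start. Its median width there was 2000 bp, beside 1400 bp for the 6 genes marked in every library, and neither was matched.

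**Figure D5:**
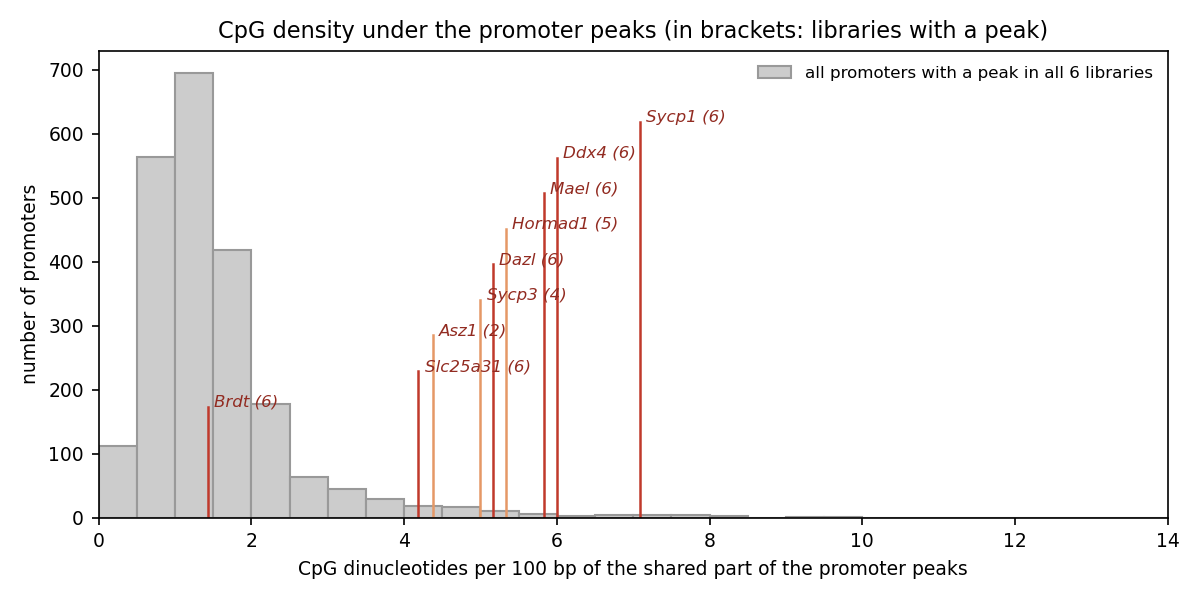
Number of promoters (y axis) by CpG dinucleotides per 100 bp of the part shared by their peaks (x axis), for the promoters with a peak in all 6 libraries, with a line for each gene of the set, whose height carries no value, and in brackets the number of libraries with a peak. Brdt lies in the bulk at 1.43, and the other genes lie between 4.19 and 7.08, beyond most marked promoters.

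Over the transcript and 5 kb on each side, 9 of the 10 genes had a peak in both WT libraries, where 59.7% of all genes did, and none of the 9 was without one in both libraries of a knockout. Of all genes so marked, 17.6% had none left in Uhrf1 KO and 2.90% in Dhx9 KO cells. Sycp3, the remaining gene, gained its promoter peak in both knockouts, as 2.78% and 5.11% of the unmarked genes gained a peak somewhere in this window. Longer genes have more room for a peak, and the genes of the set run from 13.6 kb (Sycp3) to 118 kb (Sycp1).

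Apart from the promoters, the peaks of the 6 libraries merged into 35 sites in 9 of the genes, all but Hormad1. Of these, 7 were called in all 6 libraries and 8 in only 1. Of the 17 sites called in both WT libraries, 8 were called in both and 4 in neither Uhrf1 KO library, and 12 were called in both and 2 in neither Dhx9 KO library. No site was absent from WT and present in both Uhrf1 KO libraries, and 2 were absent from WT and present in both Dhx9 KO libraries, an intronic site of Ddx4 at 112639001 to 112639400 and one of Stk31 at 49405401 to 49407000. The 4 sites lost in Uhrf1 KO cells lay upstream of Mael, downstream of Slc25a31, in an intron of Sycp1 and at the 3′ end of Brdt, and the last was also lost in Dhx9 KO cells. The shares over all sites outside promoters were not computed, so whether these counts are typical was not tested.

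Sycp1 had the most such sites. Its intron site at 102884201 to 102888000, of which 87.5% was repeat-masked, held 125 and 134 reads in WT, 60 and 138 in Uhrf1 KO and 112 and 135 in Dhx9 KO cells. A site in Stk31 at 49414801 to 49422600, with 8.33% of its bases exonic, held 92 and 96 reads in WT, 125 and 182 in Uhrf1 KO and 53 and 321 in Dhx9 KO cells. Stk31 was thus marked in its body and not at its promoter in every library. The 7 sites in all libraries had a median of 0.636 CpG sites per 100 bp and a median of 51.1% repeat-masked sequence, where the shared parts of the 6 promoters marked in every library had a median of 5.50 CpG sites.

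For context, 78 other germline genes in lists of the piRNA pathway, meiosis, oocyte and transcription factors, and sperm proteins were read the same way. Of these, 46 had a promoter peak in both WT libraries. In Uhrf1 KO cells 12 of the 46 lost it, beside 33.7% of all genes, and 23 (50%) kept it in both libraries, beside 31.3%. In Dhx9 KO cells 4 (8.7%) lost it and 31 (67.4%) kept it, close to the 8.97% and 67.3% of all genes. No gene of these lists gained a promoter peak in Uhrf1 KO cells, and Zp2, a gene of the egg coat, gained one in Dhx9 KO cells. The lists hold 21 genes unmarked in both WT libraries, and these shares were not tested against those of the set.

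By the lower of the 2 WT log2 folds, the 10 strongest of these promoters were Rhox13 (2.16), Taf7l (2.11), Rad21l (1.99), Tex12 (1.91), Sycp2 (1.76), Syce3 (1.69), Tuba3b (1.55), Henmt1 (1.53), Sohlh2 (1.48) and Acrv1 (1.39). Of them, 7 kept the peak in every library, among them the synaptonemal genes Tex12, Sycp2 and Syce3 and the meiotic cohesin Rad21l, while Tuba3b has a near-identical copy, Tuba3a, and its reads are uncertain. Rhox13 lost its peak in Dhx9 KO cells and kept it in Uhrf1 KO cells, where the log2 folds were 2.16 and 2.18. Sohlh2, a transcription factor of early germ cells, lost its peak in Uhrf1 KO cells. The other losses in Uhrf1 KO cells were Tex14, Stag3, Smc1b, Pld6, Nanos2, Zp1, Tssk1, Odf1 and the neighbours Prm1, Prm2 and Tnp2, which share a peak. Tex14, Pld6 and Zp3 were the other losses in Dhx9 KO cells.

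The change was also estimated at these other promoters where all 4 libraries had a peak. The median change in Uhrf1 KO cells was 0.18 over 23 genes, with 14 above 0, and 0.29 in Dhx9 KO cells over 31 genes, with 21 above 0. None passed an adjusted p of 0.05 in limma, while 5 of 23 and 3 of 31 had an unadjusted p under 0.05, where 27.8% and 7.76% of all promoters did. Of 10 pluripotency genes read as a check on the cell type, 2 had a promoter peak in both WT libraries, Nanog and Esrrb, where 23.7% of all genes did. Nanog, a core pluripotency factor, had log2 folds of 2.37 and 2.48 in WT cells and no promoter peak in either Uhrf1 KO library. In Dhx9 KO cells it had a promoter peak in replicate 1, with a log2 fold of 0.57, and none in replicate 2. Esrrb kept a promoter peak in all 6 libraries. Its log2 folds were 1.184 and 1.135 in WT, 0.447 and 1.46 in Uhrf1 KO and 0.922 and 1.056 in Dhx9 KO cells. The levels of Esrrb were 2.925 and 1.357 in WT, 0.183 and 0.798 in Uhrf1 KO and 1.19 and 0.939 in Dhx9 KO cells. No expression was measured in these files, so the identity of the cells rests on their labels.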

How the data were processed

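H3K9me3 ChIP-seq (an Abcam antibody) of E14TG2a mESCs was used as peak lists of 6 libraries, 2 per genotype, grouped by the labels. The other 12 samples, without a peak list, were not analysed here. Single-end reads were aligned with Bowtie2 2.3.4.3 to mm10, and the authors called peaks in each library with epic2, named SICER 0.0.51 in the submitters' processing notes, keeping duplicates. The deposited lists give ChIP and background read counts, the log2 fold between them, p-values with false discovery rates, and a score, which was not used. Positions came from the deposited annotation, in which coordinates were edited to hold the reporter on chromosome 2. No column was left without a sample (0 not used). ChIP reads in peaks number 20875020 and 19543177 in the WT lists. Reads outside peaks are not in the lists, and with duplicates kept and no molecular identifiers the counts may hold copies of the same fragment.

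Genes were called lost or gained when both libraries of a genotype agreed against both WT libraries. Read counts in regions covered over 80% in each library were tested with edgeR 4.0.16 (quasi-likelihood, called length as offset, minimum count 10) in R 4.3.3, with Benjamini-Hochberg adjustment. DESeq2 1.42.0, other scalings and filters, a replicate block and each library left out were the alternatives. The planned measure of promoter levels was ChIP reads per called kb and library size. Levels from excess reads, limma 3.58.1 on their log2 values, and the restriction to strong WT peaks were chosen after seeing the data. The edgeR test was checked on simulated data. The members and gene lists were chosen with earlier results of these data known. The text names the 10 genes, and of 78 other germline genes the 10 with the highest lower WT log2 fold and every one lost or gained. Promoter sequences are from RefSeq (GRCm38.p6).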

Additional observations from a re-analysis of the deposited data

How the results depend on the processing

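In the edgeR and DESeq2 tests of regions, regions of the set entered the comparisons of Uhrf1 KO cells only when all regions were admitted (17 regions in each, none called), so the other settings say nothing of the set there. In Dhx9 KO against WT 4 regions entered, or 22 with all regions and 0 with all 6 libraries in one fit, and none was called. No gene counted as lost from both libraries of a knockout except Hormad1, without Uhrf1 KO replicate 2 (0 to 1 lost promoters when each library was left out). The gains were less stable. Promoters gained in Uhrf1 KO cells went from 2 to 0 at a false discovery rate of at most 1e-10 and to 1 at a log2 fold of at least 1. The gain in Dhx9 KO cells went to 0 under both and with the same number of peaks in each library, for the promoter and for the gene body alike. Gene bodies gained in Uhrf1 KO cells numbered 0 at the stricter false discovery rate and 2 with the same number of peaks. Regions called by edgeR in Uhrf1 KO against WT, 209, became 106 with DESeq2, 397 with library sizes derived from the lists, 0 with all regions (2721 lower and 1180 higher at an unadjusted p under 0.05), 30 with all 6 libraries in one fit, and 1 to 547 when a library was left out (1 without WT replicate 1, 3 without WT replicate 2, 396 and 547 without Uhrf1 KO replicate 2 and 1). In Dhx9 KO against WT, 25 became 40 with those library sizes, 15 without the length offset, 6 with all regions, 0 with all 6 libraries (91 lower and 43 higher unadjusted), and 9 to 730 (9 and 15 without WT replicate 2 and 1, 490 and 730 without Dhx9 KO replicate 1 and 2). In Uhrf1 KO against Dhx9 KO, 34 became 10 with DESeq2, 142 with those library sizes, 61 without the offset, 64 with all regions, 0 with all 6 libraries (108 lower and 75 higher unadjusted), and 0 to 32 (0 without Uhrf1 KO replicate 1 or Dhx9 KO replicate 1, 5 without Dhx9 KO replicate 2). With the replicate number as a block, edgeR called 192, 80 and 0 regions (the last with 181 lower and 102 higher unadjusted). The correlation of same-numbered libraries over the regions of the main edgeR tests was 0.065, -0.069 and -0.004, so no large shared replicate effect was seen there. The labels give only a replicate number, so whether same-numbered libraries were paired is not known. Where a group keeps 1 library, that library is assumed to vary like the others. Against the planned measure, promoters above WT in Uhrf1 KO cells went from 2 to 4 with excess reads per median promoter, those above WT in Dhx9 KO cells from 0 to 4, and those below WT in Dhx9 KO cells from 4 to 0, or to 2 per library size. Of all promoters, limma called 13 in Uhrf1 KO against WT, edgeR 6 per called length and 0 without it (286 lower and 276 higher unadjusted), the replicate block 0 (297 lower and 371 higher) and the fits without a library 0 to 696. The 0 in Dhx9 KO against WT became 2 in edgeR per called length, and the 0 between the knockouts became 3, and 0 to 1 without a library (1 without Dhx9 KO replicate 2). Over the 3 comparisons, 132 refits of single promoter changes of the set kept their direction and 8 turned. For Dhx9 KO against WT the log2 change of Dazl ran from -0.24 to 0.017 (the latter without WT replicate 2) and that of Hormad1 from -0.034 (without WT replicate 1) to 1.73 when a library was left out, and that of Mael was -0.29 in edgeR per called length. For Uhrf1 KO against WT, Ddx4 ran from -0.10 (without Uhrf1 KO replicate 1) to 0.11 when a library was left out, with -0.06 without WT replicate 1, and was 0.36 in edgeR per called length. Between the knockouts, Dazl ran from -0.14 (without Dhx9 KO replicate 2; -0.11 without Uhrf1 KO replicate 2) to 0.23, and Ddx4 was 0.18 in edgeR per called length. The cause was not tested.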
